A study of Mus musculus with 12 samples.

Results

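The H2 genes of the mouse major histocompatibility complex (MHC) were taken as every probe set that the authors' deposited table annotates with a single symbol beginning with H2-. This gave 44 of the 45037 probe sets on the array, for 25 symbols. RNA came from the left ventricle, from the area at risk that lies downstream of an occluded coronary artery, of male BL6/C57 mice aged 12 weeks. The animals were wild type or A2BAR-/-, which lack the adenosine A2B receptor encoded by Adora2b, and they were either controls or had undergone ischemic preconditioning (IP). IP was 4 rounds of 5 min of ischemia, each with 5 min of reperfusion, and tissue was taken after 2 h more of reperfusion. Each combination of genotype and treatment had 3 Affymetrix arrays, 12 in all. The labels call the controls both untreated and sham operated, and the wild-type mice both purchased and littermates of the knockouts, so surgery cannot be told apart from IP, nor breeding source from genotype, if the first of each holds. They name no cell-specific promoter or Cre for the deletion and leave unsaid if each array is its own animal, which limits every p-value to the spread among arrays, technical or not.

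Classical MHC class I molecules (class Ia, here H2-K1, H2-D1 and H2-L) pair a heavy chain with beta-2 microglobulin and show peptides made by the proteasome to CD8 T cells on nearly all nucleated cells. Class Ib molecules (H2-Q, H2-T, H2-M) have the same fold with narrower or more specialised tasks. Class II molecules (H2-Aa with H2-Ab1, and H2-Eb1) sit mainly on dendritic cells, macrophages and B cells and show peptides from endosomes to CD4 T cells, after the accessory molecules H2-DM and H2-O have edited the peptide. In the heart, class II marks resident antigen-presenting cells, and interferon gamma raises both classes.

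The promoters of both classes hold a Y box, an inverted CCAAT element bound by the factor NF-Y, which in class II genes lies in the enhanceosome that recruits the coactivator CIITA. RefSeq promoter windows (GRCm38.p6, 250 bases before to 50 bases after each gene start) were given for 16 of the H2 genes, and the letters CTGATTGG on either strand occurred in 7 of them (43.8%), against 4.1% of all 32851 windows. The first share is of genes, with 20 windows for the 16, and the second is of windows, so their units differ. None of the CTGATTGG matches overlapped another motif searched. The 7 genes were H2-Aa, H2-D1, H2-Eb1, H2-K1, H2-M10.1, H2-M9 and H2-Oa. The matches in the classical genes are shown because these genes gave bright signals and carry the class comparison described further on. Each line is a stretch of 120 bases on the strand of the gene, ending at the gene start (for H2-K1 running past it by 2 bases). Capitals mark the letters CTGATTGG or their reverse complement. They are read on the gene strand in H2-Aa (chr17:34287824-34287943, minus strand) and H2-Eb1 (chr17:34305747-34305866, plus strand), and on the opposite strand in H2-D1 (chr17:35262974-35263093, plus strand) and H2-K1 (chr17:34000332-34000451, minus strand). In H2-D1 and H2-K1 the CCAAT is therefore not inverted on the gene strand. Whether these letters are the Y box of those 2 promoters was not tested.
H2-Aa: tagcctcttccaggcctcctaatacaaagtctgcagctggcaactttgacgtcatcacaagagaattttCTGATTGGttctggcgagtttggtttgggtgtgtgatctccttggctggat
H2-Eb1: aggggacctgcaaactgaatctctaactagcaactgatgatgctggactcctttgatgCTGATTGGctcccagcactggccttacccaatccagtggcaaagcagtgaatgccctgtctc
H2-D1: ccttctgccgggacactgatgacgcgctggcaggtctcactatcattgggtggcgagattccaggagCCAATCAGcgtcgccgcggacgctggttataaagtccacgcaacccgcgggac
H2-K1: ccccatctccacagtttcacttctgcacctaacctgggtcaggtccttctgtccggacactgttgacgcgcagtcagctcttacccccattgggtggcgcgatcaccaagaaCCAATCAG
The kappa B letters GGGANTTCC were found in H2-Aa (1.68% of all windows), the core of the interferon-stimulated response element GAAANNGAA in H2-T22 (8.56%), and the X box letters CCTAGCAAC in H2-Ob (0.804%), each in 1 of the 16 genes. A match is a description of the sequence and not a measured site.

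Signals are MAS5 array intensities as deposited, and differences are on the scale log2(signal + 16), with standard errors (SE) and Benjamini-Hochberg adjusted p-values from limma over the 27022 probe sets whose mean exceeded the 40th percentile. A value passed at an adjusted p below 0.05. The authors' deposited table places every H2 probe set that it gives a position on chromosome 17, on a build it does not name, with H2-Ab1 at 33871432 to 33877605, H2-Q10 at 35078160 to 35082594, H2-T24 at 35613748 to 35643404 and H2-M3 at 36878315 to 36882539. Of the 44 H2 probe sets, 27 (16 symbols) lay above that filter and were tested, and 17 did not. The third wild-type control array has 1425 probe sets at 0 that were treated as missing, including the probe set of H2-Eb1. Median signals were between 66.5 and 81.1 on the arrays. All 8 cardiomyocyte markers lay above the filter, with summed signals between 325516 and 391513. Adora2b was lower in the knockout arrays by log2 −0.94 (exact permutation p = 0.0346, two-sided, 924 permutations). Its signals overlapped between genotypes in control hearts (42.1 to 72.0 in wild type, 18.6 to 62.6 in the knockout) and not after IP (156 to 207 against 47.7 to 61.5), and whether its probes lie in the deleted part was not given. The third wild-type control array also stood apart in neutrophil markers, whose summed signal was 8613 there against 859 and 921 on the other wild-type controls. In bulk tissue, fewer cells of a type and less RNA per cell cannot be told apart.

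The comparisons of IP with control ask how the ventricle responds to preconditioning with and without the receptor. Few H2 genes changed. In wild-type hearts H2-T24, a class Ib gene, fell and 1 probe set of H2-Ab1, the class II beta chain of I-A, rose, so 2 of 27 H2 probe sets passed by limma, against 12.1% of all probe sets tested. In knockout hearts none of the 27 passed by limma, against 8.85% of all probe sets tested, and none had an unadjusted p below 0.05, against 22.9%. None of the 27 has a decision other than 0 there in the authors' deposited table. The share of all probe sets with such a decision by the authors was not counted for any comparison. Averaged over both genotypes, 3 of 27 passed, against 20.3% of all: H2-T24 and H2-M3 were lower and H2-Q10 was higher after IP. All 3 are class Ib genes. The median IP difference of the 27 was log2 −0.06 in wild type and 0.13 in the knockout, and over all probe sets it was −0.03 and −0.05. Arrays of the IP and control groups did not overlap in 4 of the 27 in each genotype, against 30.2% of all probe sets in wild type and 28.6% in the knockout.

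**Figure D1:**
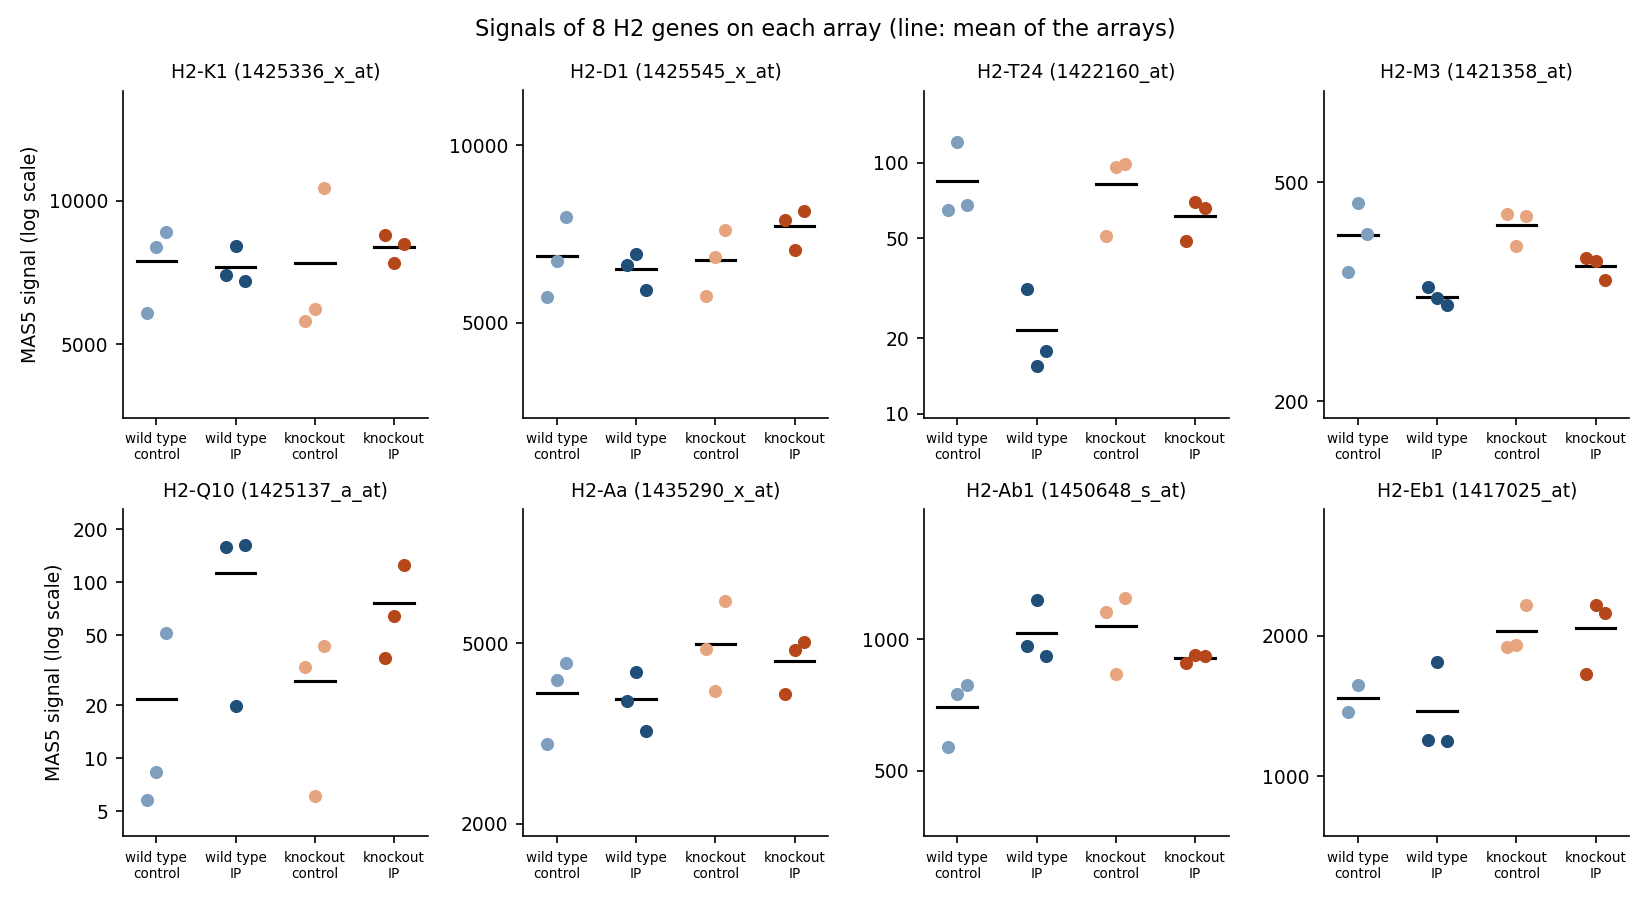
MAS5 signals of 8 H2 genes on each of the 12 arrays, by the brightest probe set of each gene, on log axes that differ between panels. Points are arrays, bars are group means, and H2-Eb1 lacks 1 wild-type control point. H2-T24 is low on all wild-type IP arrays, from 15.5 to 31.4, and H2-Eb1 is higher on all knockout control arrays than on both wild-type control arrays that have a value.

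Class Ib genes were 3 of the 4 probe sets that passed for IP in any of these comparisons. H2-T24 read 64.6, 121 and 67.9 on the wild-type control arrays and 31.4, 15.5 and 17.8 on the wild-type IP arrays. In the knockout it read 51.0, 96.2 and 99.0 on the control arrays and 48.9, 69.9 and 65.8 on the IP arrays. The wild-type groups did not overlap, while the knockout groups did. H2-T24 fell by 1.40 ± 0.34 (SE) log2 in wild type, a 2.64-fold lower value (limma adjusted p = 0.0148, n = 3 arrays a group), and its difference in the knockout was −0.31 ± 0.34 (adjusted p = 0.655). The difference between the genotypes in the IP effect was 1.09 ± 0.48, with an unadjusted p of 0.0383 and a limma adjusted p of 0.652. None of the 27 H2 probe sets passed for that difference by limma, nor did any of all probe sets tested (0%), while 3 of the 27 had an unadjusted p below 0.05, against 7.4% of all, and the authors' deposited table has a decision of 0 for each. The H2-T24 call in wild type was lost without the second wild-type control array, the highest of its group, where the change was −1.16 (adjusted p = 0.0771). In the authors' deposited table H2-T24 differs by log2 −0.61 between wild-type IP and control hearts, with a decision of 0. Averaged over both genotypes H2-T24 fell by 0.85 ± 0.24 (adjusted p = 0.0201), a call lost without the second wild-type control array (−0.73, adjusted p = 0.0597), the second knockout control array (−0.80, 0.0517) or the third (−0.79, 0.0523). Whether its lowest signals lie above background was not tested.

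H2-M3, which presents N-formylated peptides of bacteria and mitochondria, read 344, 459 and 403 on wild-type control arrays and 323, 308 and 299 on wild-type IP arrays. Its knockout signals were 437, 383 and 435 on control arrays and 365, 359 and 333 on IP arrays. Control and IP arrays did not overlap in either genotype. Averaged over both, H2-M3 fell by 0.29 ± 0.10 log2, a 1.23-fold lower value (limma adjusted p = 0.0452). The call was lost without any 1 of 10 arrays, all but the first wild-type and the second knockout control, at adjusted p-values between 0.0616 and 0.114. Within single genotypes the differences were −0.35 ± 0.14 in wild type (adjusted p = 0.118) and −0.24 ± 0.14 in the knockout (adjusted p = 0.337).

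H2-Q10, a secreted class Ib molecule known mainly from the liver, had low and scattered signals. They were 5.78, 8.35 and 51.4 on wild-type control arrays and 158, 19.9 and 163 on wild-type IP arrays. In the knockout they were 33.1, 6.14 and 43.4 on control arrays and 37.4, 64.8 and 126 on IP arrays. The groups overlapped in both genotypes. Averaged over both, H2-Q10 rose by 1.37 ± 0.46 log2, a 2.58-fold higher value (limma adjusted p = 0.0456). The call was lost without any 1 of 8 arrays, at adjusted p-values between 0.0584 and 0.12: the first or second control of either genotype, the first or the third wild-type IP array, and the second or the third knockout IP array. In wild type alone the difference was 1.66 ± 0.64 (adjusted p = 0.114), which passed without the second wild-type IP array, its lowest, at 2.42 (adjusted p = 0.0183).

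The fourth class Ib gene above the filter, H2-Q8, is named here after its values were seen. It read 25.9, 56.5 and 43.9 on wild-type control arrays, 28.1, 6.75 and 30.3 on wild-type IP arrays, 37.3, 39.0 and 74.8 on knockout control arrays and 96.3, 79.7 and 83.5 on knockout IP arrays. All knockout IP arrays lay above the arrays of the other groups. It did not pass in any comparison: the knockout exceeded wild type after IP by 1.51 ± 0.38 log2 (limma adjusted p = 0.093), and the genotype difference in the IP effect was 1.32 ± 0.54 (unadjusted p = 0.0275, adjusted p = 0.631).

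The classical class I genes did not change detectably with IP. H2-K1 read 5816, 7981 and 8599 on wild-type control arrays, 6999, 8026 and 6784 on wild-type IP arrays, 5603, 5936 and 10666 on knockout control arrays and 8479, 7417 and 8129 on knockout IP arrays. These groups overlapped throughout, and the IP difference was −0.02 ± 0.19 log2 in wild type (limma adjusted p = 0.961) and 0.18 ± 0.19 in the knockout (adjusted p = 0.653). H2-D1 read 5524, 6373 and 7553, then 6269, 6551 and 5685 on wild-type control and IP arrays, and 5549, 6458 and 7194, then 7473, 6640 and 7744 on knockout control and IP arrays. Its knockout IP arrays all lay above its wild-type IP arrays, by 0.24 ± 0.12 (limma adjusted p = 0.364), and its IP differences were −0.06 ± 0.12 in wild type and 0.19 ± 0.12 in the knockout. Over the 9 class Ia probe sets above the filter, IP differences ran from −0.53 to 0.34 in wild type, with 3 above 0, and from 0.14 to 0.81 in the knockout, with 9 above 0. None of these had an unadjusted p below 0.05 by limma, against 22.9% of all probe sets for IP in the knockout. The names of most of these 9 end in x_at, a suffix that marks probes shared with near-identical genes, so they are not independent and their assignment to H2-K1, H2-D1 or H2-L is uncertain. H2-L itself, a gene that the haplotype of BL6 mice lacks, read between 2641 and 4216.

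Of the class II genes, H2-Ab1 was measured by 3 probe sets that disagreed on IP. The brightest, 1450648_s_at, read 568, 750 and 786 on wild-type control arrays, 966, 1229.9 and 914 on wild-type IP arrays, 1152, 832 and 1243 on knockout control arrays and 881, 919 and 917 on knockout IP arrays. The wild-type control arrays lay below those of every other group. This probe set rose by 0.56 ± 0.16 log2 with IP in wild type, a 1.47-fold higher value (limma adjusted p = 0.0381), and differed by −0.22 ± 0.16 in the knockout (adjusted p = 0.462). The genotype difference in that effect was −0.78 ± 0.23 (unadjusted p = 0.00415, adjusted p = 0.538). The other 2 probe sets of H2-Ab1 differed by −0.23 ± 0.19 (1451721_a_at) and −0.00 ± 0.27 (1425477_x_at) in wild type, neither past the threshold. In the authors' deposited table all 3 lie below 0, and 1450648_s_at has −0.20, opposite in sign to the value here. The mean of the 3 probe sets differed by 0.11 (adjusted p = 0.744), and the call was lost without any 1 of 6 arrays, the first and second of the wild-type control, wild-type IP and knockout IP groups, at adjusted p-values between 0.0501 and 0.152.

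The remaining class II probe sets gave no change with IP that passed. H2-Aa, the alpha chain of I-A, by its brightest probe set read 3006, 4156 and 4525 on wild-type control arrays and 3741, 4332 and 3211 on wild-type IP arrays. In the knockout it read 4855, 3936 and 6189 on control arrays and 3871, 4829 and 5038 on IP arrays. H2-Eb1, the beta chain of I-E, read 1373 and 1568 on the wild-type control arrays with a value, 1196, 1755 and 1194 on wild-type IP arrays, 1887, 1913 and 2325 on knockout control arrays and 1653, 2329.7 and 2234 on knockout IP arrays. For this probe set of H2-Aa the IP and control groups overlapped, and the IP difference was −0.04 ± 0.17 log2 in wild type and −0.11 ± 0.17 in the knockout. For H2-Eb1 it was −0.11 ± 0.18, fitted without the missing array, and 0.01 ± 0.16. The limma adjusted p-values of these differences lay between 0.757 and 0.979. H2-Ea, which the haplotype of BL6 mice does not express, had 3 probe sets, all below the filter, with signals of at most 60.8.

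**Figure D2:**
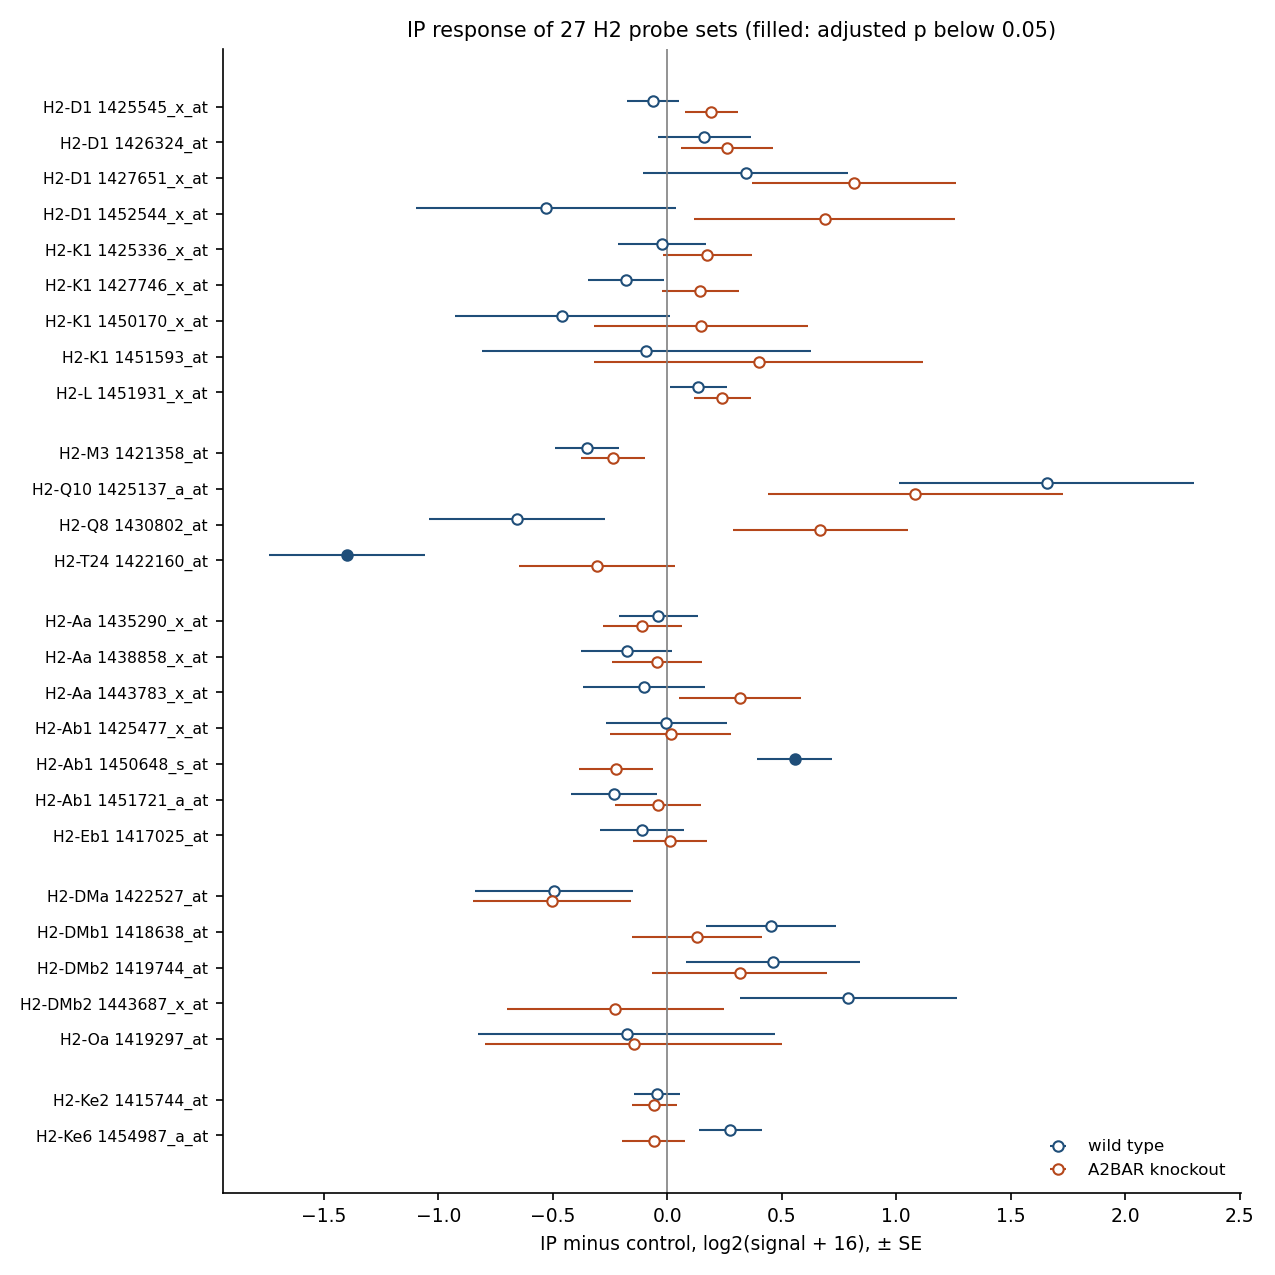
IP minus control difference in log2(signal + 16) with its SE for the 27 H2 probe sets above the filter, in wild type (blue) and A2BAR knockout (orange), grouped by class. Filled points passed at an adjusted p below 0.05: H2-T24 at −1.40 and 1 probe set of H2-Ab1 at 0.56, both in wild type.

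The comparisons of knockout with wild type ask whether loss of the receptor changes expression in control and in preconditioned tissue. No H2 probe set passed by limma in control hearts (0.0481% of all probe sets passed), after IP (0.326%) or averaged over both treatments (0.374%). The authors' deposited table gives a decision other than 0 to 1 H2 probe set in control hearts and to 0 after IP, with the share of all probe sets not counted. The unadjusted p was below 0.05 for 3 of 27 in control hearts, against 6.81% of all, for 6 of 27 after IP, against 14.4%, and for 7 of 27 on average, against 13.5%. In each of these the knockout was higher. The comparisons share arrays with each other and with the IP comparisons: the wild-type control arrays enter both the IP difference of wild type and the genotype difference of control hearts. Arrays of the genotypes did not overlap in 4 of 27 probe sets in control hearts, against 11.9% of all, and in 4 of 27 after IP, against 21.3%. The median genotype difference of the 27 was log2 0.11 in control hearts and 0.18 after IP, and over all probe sets it was −0.00 and −0.02.

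Class II probe sets made up 3 of the 3 small unadjusted p-values in control hearts, 4 of the 6 after IP and 5 of the 7 on average. Over all probe sets, 6.81%, 14.4% and 13.5% had such an unadjusted limma p-value, in the same order. All 7 class II probe sets above the filter read higher in the knockout in control hearts, by log2 0.25 to 0.60, and 6 of 7 did so after IP, from −0.18 to 0.67. Averaged over both treatments the range was 0.21 to 0.53, and 5 of the 7 had an unadjusted p below 0.05, but none passed. These 7 probe sets measure 3 genes, so they are not independent. Every H2-Aa probe set, and 1425477_x_at of H2-Ab1, carries the suffix x_at described above, so the assignment of these to a single gene is likewise uncertain. In the authors' deposited table all 7 are also above 0 in both treatments, from 0.29 to 0.43 in control hearts and from 0.27 to 0.63 after IP, with a decision of 0 for each.

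H2-Eb1 had the smallest adjusted p among the H2 genes in the average over treatments. From the signals given above, both wild-type control arrays with a value lay below all knockout control arrays, and the highest wild-type IP array, at 1755, exceeded the lowest knockout IP array, at 1653. The missing value is that of the third wild-type control array, the highest of its group for the brightest probe sets of H2-Aa and H2-Ab1 and for Cd74. Its absence may therefore lower the wild-type control mean of H2-Eb1, which was not tested. The knockout exceeded wild type by 0.47 ± 0.18 log2 in control hearts (limma adjusted p = 0.681), by 0.59 ± 0.16 after IP (adjusted p = 0.116) and by 0.53 ± 0.12 on average (adjusted p = 0.0848). When the second wild-type IP array, the highest of its group, was left out, the average was 0.62 and passed (limma adjusted p = 0.0417).

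For H2-Ab1, probe set 1451721_a_at read 487, 656 and 665 on wild-type control arrays and 767, 677 and 960.0 on knockout control arrays. After IP it read 416, 645 and 482 in wild type and 629, 866 and 839 in the knockout. The genotypes did not overlap in control hearts and overlapped by 1 array after IP. The knockout exceeded wild type by 0.50 ± 0.13 on average (limma adjusted p = 0.117). The 3 probe sets of H2-Aa differed by 0.32 ± 0.12, 0.44 ± 0.14 and 0.46 ± 0.19 on average, with limma adjusted p-values between 0.185 and 0.292. Probe set 1450648_s_at of H2-Ab1 was the exception to the common direction, at 0.60 ± 0.16 in control hearts (adjusted p = 0.476) and −0.18 ± 0.16 after IP (adjusted p = 0.674).

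**Figure D3:**
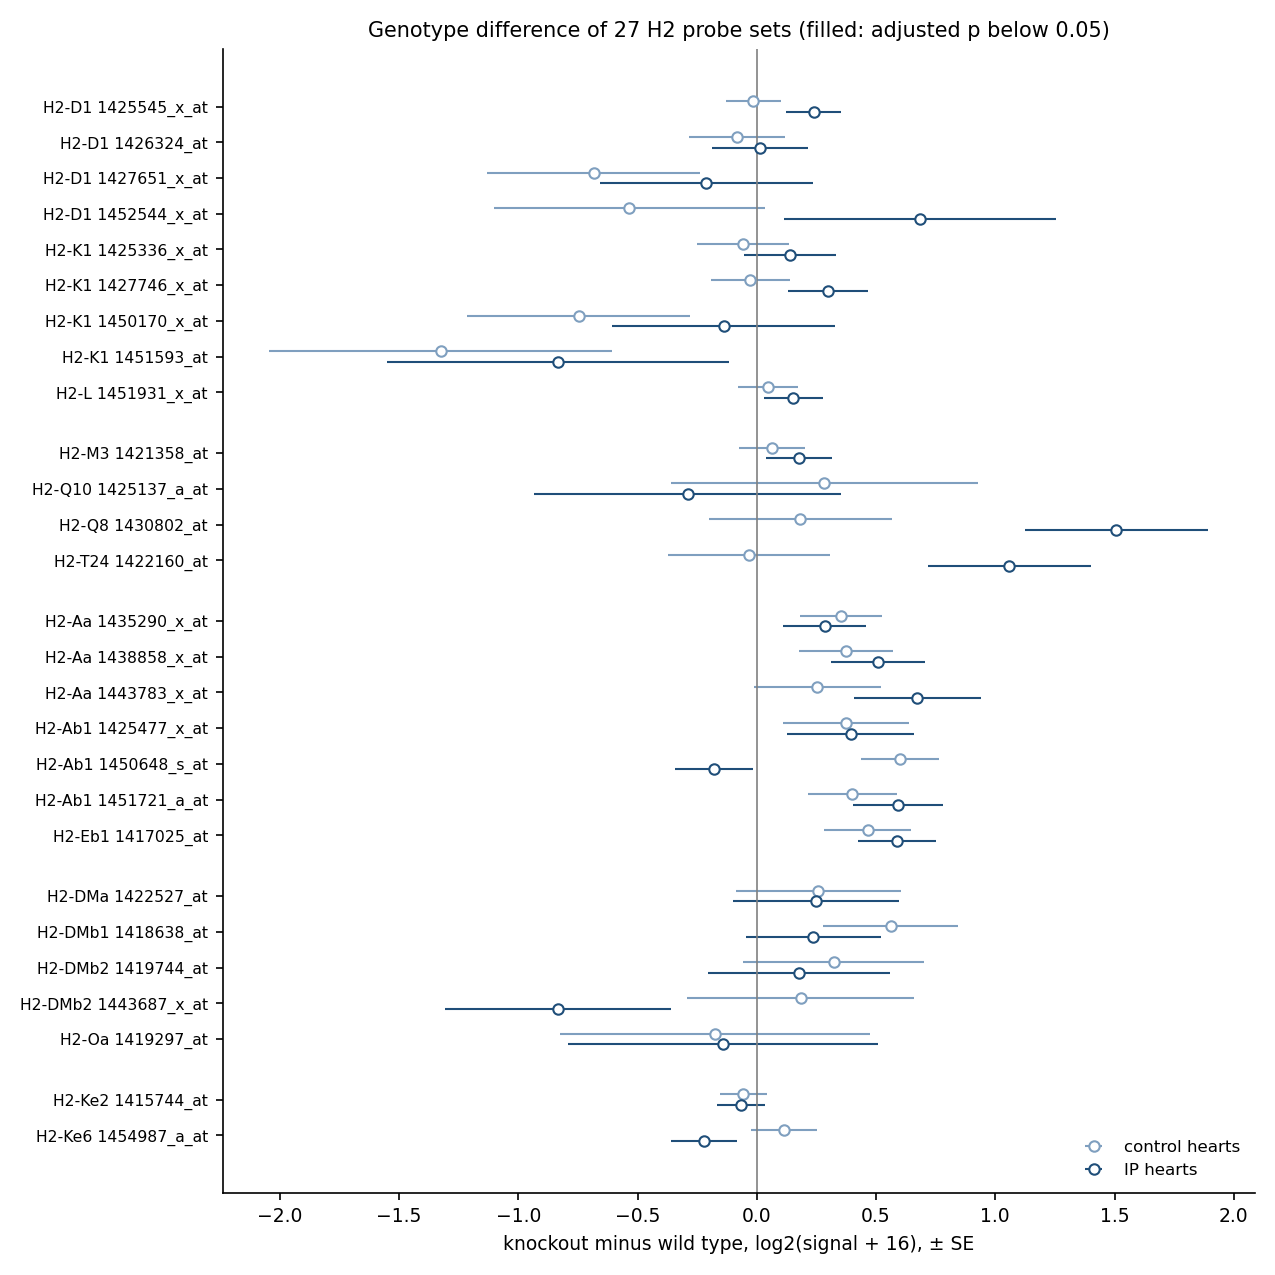
Knockout minus wild type difference in log2(signal + 16) with its SE for the 27 H2 probe sets above the filter, in control hearts (light blue) and IP hearts (dark blue), grouped by class. All points are open since none passed at an adjusted p below 0.05, and the class II group lies above 0 except for 1 probe set of H2-Ab1 in IP hearts.

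The class II accessory genes encode H2-DM, which removes the invariant chain fragment from class II grooves, and H2-O, which restrains H2-DM. Of their 8 probe sets 5 lay above the filter, and none passed or had an unadjusted p below 0.05 by limma in any of the 7 contrasts. Of all probe sets tested, from 0% (genotype difference in the IP effect) to 20.3% (average IP effect) passed in these contrasts. Where counted, the share with an unadjusted p below 0.05 ran from 6.81% (genotype difference in control hearts) to 22.9% (IP in the knockout). H2-DMa, named here after its values were seen, read 141, 290.1 and 318 on wild-type control arrays, 82.2, 223 and 228 on wild-type IP arrays, 215, 280.1 and 384 on knockout control arrays and 222, 208 and 164 on knockout IP arrays. Its groups overlapped, and averaged over genotypes the IP difference was −0.50 ± 0.25 log2 (adjusted p = 0.173). H2-DMa is the only H2 gene with a decision of 1 in the authors' deposited table, where the knockout exceeds wild type by log2 0.34 in control hearts, while the difference here was 0.26 ± 0.35 (limma adjusted p = 0.926). H2-DMb1 and the brighter H2-DMb2 probe set differed by 0.45 ± 0.28 and 0.46 ± 0.38 with IP in wild type, and their arrays overlapped. The dimmer H2-DMb2 probe set differed by 0.79 ± 0.47 (limma adjusted p = 0.318), from between 26.9 and 55.9 on control arrays to between 59.6 and 103 on IP arrays, without overlap, and by −0.23 ± 0.47 in the knockout. H2-Oa ranged from 3.38 to 110.5 over the arrays, with IP differences of −0.18 ± 0.65 in wild type and −0.15 ± 0.65 in the knockout. H2-Ob lay below the filter, with signals between 1.49 and 45.4.

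The 2 genes of the region that encode no MHC molecule differed little and none passed. H2-Ke2, now Pfdn6, a subunit of the chaperone prefoldin, differed by between −0.07 and −0.05 log2 in the 4 comparisons of single groups, and H2-Ke6, a hydroxysteroid dehydrogenase, by between −0.22 and 0.28. Among the 17 probe sets below the filter, class Ib genes were represented by H2-Bl, H2-M10.1, H2-M9, H2-Q5, H2-T18 and H2-T22. None of the 17 passed when the filter was left out, and the share of all probe sets that passed in that fit was not counted. The lowest adjusted p among them was that of H2-M10.1 for IP in the knockout, at log2 1.33 ± 0.39 (limma adjusted p = 0.0689), with signals of 18.3, 12.2 and 12.4 on control arrays and 59.5, 86.0 and 40.4 on IP arrays. H2-D4, which was given no class, ranged from 2.68 to 50.7.

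The genes that act with the H2 molecules were described from lists of class I presentation, class II presentation and interferon signalling. Of 14 class I presentation genes tested, 2 were lower with IP in wild type and none was higher, and none of 14 passed in the knockout, against 12.1% and 8.85% of all probe sets in either direction. Psmb9, an immunoproteasome subunit, read 386, 346 and 424 on wild-type control and 209, 244 and 223 on wild-type IP arrays, without overlap. It fell by 0.73 ± 0.18 log2 in wild type (limma adjusted p = 0.0183), and its difference in the knockout was −0.17 ± 0.18 (adjusted p = 0.656). The genotype difference in that effect was 0.56 ± 0.26 (adjusted p = 0.671). Psmb10, another such subunit, fell by 0.42 ± 0.12 in wild type (adjusted p = 0.0371). The Psmb9 call was lost without the first or the third array of either wild-type group (adjusted p up to 0.0693), and the Psmb10 call without any 1 of the 6 wild-type arrays (up to 0.106). Averaged over genotypes, 2 of 14 were lower, Psmb9 and Psmb10, and 1 was higher, against 20.3% of all probe sets in either direction. The averaged Psmb10 call held with any 1 array left out (limma adjusted p between 0.0128 and 0.0426). The averaged Psmb9 call was lost without any 1 of 4 arrays (up to 0.0616). Psmb8 differed by −0.18 ± 0.16 in wild type, and B2m, which encodes beta-2 microglobulin, by −0.11 ± 0.11 in wild type and 0.04 ± 0.11 in the knockout, none past the threshold. Tap1, which carries peptides into the endoplasmic reticulum, rose by 0.64 ± 0.19 averaged over genotypes (adjusted p = 0.0284), a call lost without any 1 of 6 arrays, the first of each group, the second knockout control or the third knockout IP array, at adjusted p-values up to 0.0761.

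Of 16 interferon signalling genes tested, Irf1, Irf8, Jak2 and Cxcl10 were higher with IP in each genotype, 4 in wild type and 4 in the knockout, against the same 12.1% and 8.85% of all probe sets. Irf1, a transcription factor that acts on class I promoters, read 785, 943 and 833 on wild-type control and 2174, 1750 and 1919 on wild-type IP arrays. In the knockout it read 894, 1006 and 1019 on control and 2420, 2235 and 1498 on IP arrays. Every IP array exceeded every control array, and Irf1 rose by 1.17 ± 0.15 log2 in wild type (limma adjusted p = 0.000191) and 1.04 ± 0.15 in the knockout (adjusted p = 0.000576). Cxcl10, an interferon-induced chemokine, rose by 2.22 ± 0.22 and 2.27 ± 0.22, and Jak2, a kinase of the interferon gamma receptor, by 0.92 ± 0.14 in both. Irf8, a factor of myeloid cells, rose by 1.14 ± 0.18, fitted with 1 wild-type control value missing, and by 1.03 ± 0.16. Cxcl9, another such chemokine, rose by 0.65 ± 0.21 averaged over genotypes (adjusted p = 0.039), a call lost without any 1 of 8 arrays, all but the third of the wild-type groups and of the knockout control and the second knockout IP array, at adjusted p-values up to 0.0992. Ifng, which encodes interferon gamma, lay below the filter.

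Of 11 class II presentation genes, 1 was higher with IP in each genotype, a share near the 12.1% and 8.85% of all probe sets that passed in wild type and knockout. This was Cd86, a costimulatory molecule of antigen-presenting cells, which rose by 1.20 ± 0.32 log2 in wild type (limma adjusted p = 0.0232) and 1.14 ± 0.32 in the knockout (adjusted p = 0.0366). The first call was lost without the first or second wild-type control or the first or the third wild-type IP array (adjusted p up to 0.1), and the second without the second or the third knockout control or any 1 of the knockout IP arrays (up to 0.138). Lgmn, a lysosomal protease, rose by 0.29 ± 0.09 averaged over genotypes (adjusted p = 0.0304), a call lost without any 1 of 8 arrays, all but the first wild-type control, the second wild-type IP, the second knockout control and the first knockout IP array, at adjusted p-values up to 0.0834. Cd74, the invariant chain that travels with class II, read 1750, 2529 and 3150 on wild-type control, 1951, 3050 and 2340 on wild-type IP, 2654, 2667 and 3937 on knockout control and 2517, 3075 and 3445 on knockout IP arrays. Its groups overlapped, the IP differences were −0.00 ± 0.21 and −0.02 ± 0.21, and the knockout exceeded wild type by 0.32 ± 0.15 on average (adjusted p = 0.367). Ciita, the class II coactivator, differed by −0.16 ± 0.45 in wild type and 0.43 ± 0.45 in the knockout with IP. No gene of the 3 lists passed between the genotypes by limma, near the share of all probe sets (0.0481% in control hearts, 0.326% after IP, 0.374% on average). In the authors' deposited table Cxcl10 was called higher in the knockout after IP, at log2 0.92. Without the first knockout IP array Lgmn was higher in the knockout on average (log2 0.43, limma adjusted p = 0.0494).

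**Figure D4:**
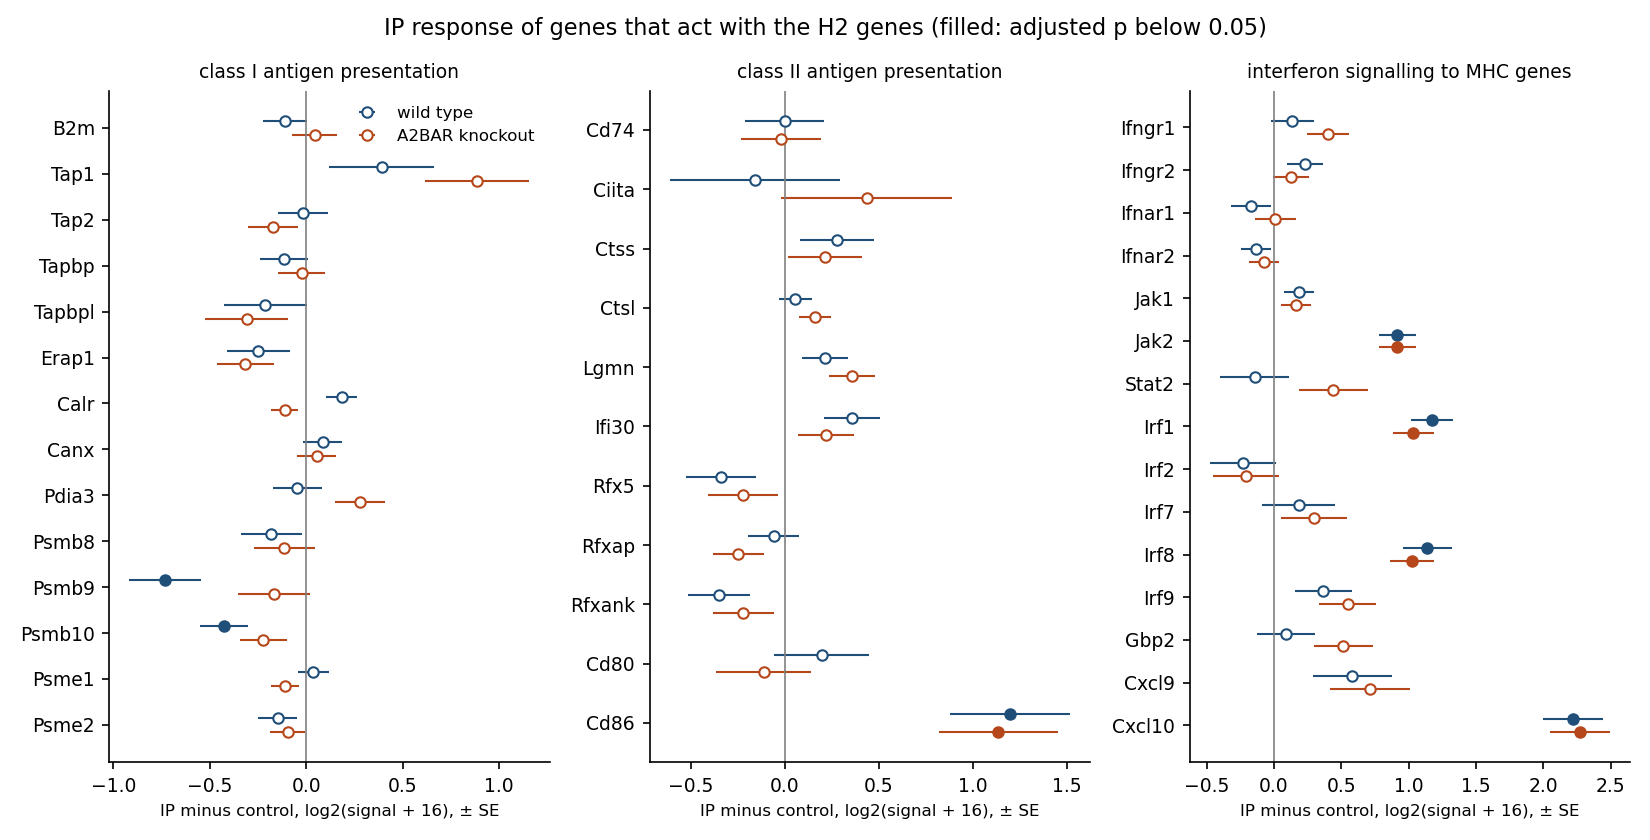
IP minus control difference in log2(signal + 16) with its SE for genes of class I presentation, class II presentation and interferon signalling, in wild type (blue) and A2BAR knockout (orange), each by its brightest probe set. Filled points passed at an adjusted p below 0.05, and Irf1, Irf8, Jak2, Cxcl10 and Cd86 are filled in both genotypes.

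Markers of the cells that carry class II did not pass between the genotypes: 0 of 13 for monocytes or macrophages, 0 of 5 for dendritic cells and 0 of 6 for B cells by limma. Of all probe sets, 0.0481% passed between the genotypes in control hearts, 0.326% after IP and 0.374% on average, so counts of 0 are near that share. The signal summed over 11 of 14 macrophage markers ran from 9159 to 14623 on wild-type control, 10435 to 12097 on wild-type IP, 10302 to 11297 on knockout control and 9759 to 12194 on knockout IP arrays, and the highest value was on the third wild-type control array. That of 8 of 9 dendritic cell markers ran from 734 to 1084, 525 to 703, 583 to 909 and 553 to 686 in the same order, and that of 6 of 7 B cell markers from 418 to 602, 380 to 427, 441 to 574 and 344 to 586. Averaged over treatments, the median genotype difference was log2 0.04 for macrophage, −0.36 for dendritic cell and 0.30 for B cell markers, with 6 of 6 B cell markers above 0. Outside the run of zeros treated as missing, no signal on any array was 0, so a reading of 0 could not mark an undetected gene. Xcr1, Ccr7, Irf4 and Pax5 lay below the filter. The genotype groups overlapped in each sum. With IP, against 12.1% of all probe sets called in wild type and 8.85% in the knockout, the macrophage marker Cx3cr1 was lower in both genotypes (log2 −1.73 ± 0.48 and −2.03 ± 0.48), and Lyve1 was higher in wild type and Mrc1 in the knockout, so 2 of 13 passed in each. The dendritic cell marker Zbtb46 (1 of 5, log2 −0.76 ± 0.20) and the B cell marker Ighm (1 of 6, limma adjusted p = 0.0219) were lower in wild type, and none of either list passed in the knockout. In the same comparison 7 of 8 neutrophil markers were higher in wild type and 6 of 8 in the knockout, with summed signals from 859 to 8613 on wild-type control, 8553 to 24442 on wild-type IP, 1367 to 2094 on knockout control and 7683 to 16037 on knockout IP arrays. In the endothelium list 4 of 9 markers were lower in wild type and 3 of 9 in the knockout, and sums ran from 14017 to 16407 on control and from 10448 to 11214 on IP arrays of wild type. Of the cardiomyocyte markers 3 of 8 were higher with IP in wild type, where sums ran from 386917 to 391513 on IP arrays against 327259 to 357271 on control arrays, and none passed in the knockout. Among T or NK cell markers 3 of 11 lay above the filter and none passed. Their part in the differences of the H2 genes was not tested. Without the third wild-type control array, which was high in neutrophil and macrophage markers, H2-T24 differed by −1.51 with IP in wild type (limma adjusted p = 0.0253) and H2-Ab1 1450648_s_at by 0.64 (adjusted p = 0.0362). The averaged calls of H2-T24 (0.0262) and H2-Q10 (0.0218) held, and that of H2-M3 was lost (0.0755). Both Psmb9 calls, the wild-type Psmb10 call and the averaged Lgmn call were also lost. For IP in wild type the brightest probe sets of H2-K1, H2-D1 and H2-Aa changed sign, with no call either way.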

How the data were processed

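Left ventricle RNA was measured on 12 Affymetrix arrays. The authors' deposited value table holds 1 signal intensity per probe set, made with MAS5 per the submitters' processing notes (scaling target not stated there). A further deposited table by the authors holds, per the file headers, log2 differences for 5 contrasts, p-values and a decision score of −1, 0 or 1, and it supplied the symbols. A run of 1425 zeros on the third wild-type control array was set as missing (median signal 639 elsewhere). Signals were transformed to log2(signal + 16), 64 control probe sets were left out, and limma 3.58.1 in R 4.3.3 fitted 1 mean per group to the 27022 probe sets above the 40th percentile, with an intensity trend and 8 residual degrees of freedom, over 7 contrasts (2 IP effects, 2 genotype differences, their averages and the genotype difference in the IP effect). Tests were two-sided. The fit was tested on simulated arrays with known changes. Folds are ratios of signal + 16 and understate changes of dim genes. Adora2b was tested by exact permutation with scipy 1.17.1. The number of arrays limits the precision.

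All 44 H2 probe sets are accounted for. Genes past the threshold and the classical genes H2-K1, H2-D1, H2-Aa, H2-Ab1 and H2-Eb1 have values on every array, and the brightest probe set leads. Of the companions, B2m, Tap1, Psmb8, Cd74, Ciita and Irf1 were always named, and up to 4 more per list and contrast past the threshold, and 1 further interferon signalling gene is not reported here. The members, lists, markers and motifs were chosen with earlier results of these data known. Marker lists covered neutrophils, monocytes or macrophages, dendritic cells, B cells, T or NK cells, endothelial cells, fibroblasts (1 of 7 markers lower with IP in wild type and 0 of 7 in the knockout) and cardiomyocytes (3 of 8 higher in wild type and 0 of 8 in the knockout). Of all probe sets, 12.1% passed with IP in wild type and 8.85% in the knockout. Sums over a list used the markers with a value on every array. Symbols were updated by Entrez identifier in the RefSeq gene table, where 2 of the 25 H2 symbols did not match.

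The arrays were treated as unpaired. Alternatives were offsets of 1 and 64, quantile normalization, filters, the variance model, array weights, gene-level summaries, the zeros kept, the replicate block, the authors' table and each array left out.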

Additional observations from a re-analysis of the deposited data

How the results depend on the processing

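Counts of H2 probe sets past the threshold were small, so single probe sets near it moved them. The count for IP in wild type, 2 in the analysis reported, was 1 with no filter, with a filter at the 60th percentile, with no intensity trend, with zeros kept and with a gene's probe sets averaged, and 0 in the authors' deposited table. The count for the average IP effect, 3 as reported, was 1 with no filter, with the 60th percentile filter and with quantile normalization. Knockout against wild type in control hearts gave 0 here and 1 in the authors' deposited table. With 1 array left out the counts ran from 0 to 2 for IP in wild type, from 0 to 2 for the average IP effect and from 0 to 1 for the average genotype effect, and were 0 for the other 4 contrasts. With replicate number as a block the counts were 2 for IP in wild type and 2 for the average IP effect, and H2-Ab1 1450648_s_at lost its call (adjusted p = 0.0531), as did H2-M3 (0.0693) and Psmb10 in wild type (0.0502), while H2-Q10 passed in wild type (0.0475). The numbers do not pair the arrays: deviations of same-numbered arrays from their group means correlated between −0.0698 and 0.0719 over 18 pairs.

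The one called result that reversed was H2-Ab1 1450648_s_at for IP in wild type, at −0.20 in the authors' deposited table against 0.56, and the cause was not tested. Its call was also lost with no filter (adjusted p = 0.0515), no intensity trend (0.0858) and zeros kept (0.076). H2-T24 in wild type was lost in the authors' deposited table, by its decision, and without the second wild-type control array. Over 154 values of named genes, of which 27 were called, 108 alternatives lost a call and 12 gained one. A further 167 alternatives, in 63 of the 154 values, changed the sign with no call either way. The Adora2b permutation p was 0.0346 at every offset. Irf8 lost its calls with zeros kept, since 1 of its wild-type control values is such a zero. Signals near the low end have wide scatter between arrays, and no detection calls were analysed here.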

Other observations

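A further 10 probe sets carry several symbols with an H2 symbol among them and so lie outside the 44, since their signal cannot be assigned to 1 gene. The probe set named for H2-T23 with several other symbols, a class Ib group, fell by 0.36 ± 0.11 (SE) log2 with IP in wild type (limma adjusted p = 0.0417), and control and IP arrays did not overlap in either genotype. Its signals ran from 1990 to 2365 on wild-type control, 1570 to 1813 on wild-type IP, 1923 to 2483 on knockout control and 1732 to 1858 on knockout IP arrays. The probe set named for H2-Q1 and a RIKEN symbol rose by 1.02 ± 0.26 with IP in the knockout (limma adjusted p = 0.0247), from between 66.5 and 174 to between 235 and 263, and differed by −0.07 ± 0.26 in wild type (adjusted p = 0.91). The genotype difference in that effect was 1.09 ± 0.37 (unadjusted p = 0.0106, adjusted p = 0.555). The probe set shared by H2-Aa and H2-Ea exceeded wild type in the knockout by 0.41 ± 0.16 averaged over treatments (adjusted p = 0.274), and that shared by H2-DMb1 and H2-DMb2 by 0.62 ± 0.26 (adjusted p = 0.3), neither past the threshold. With IP this last probe set differed by −0.82 ± 0.36 in wild type (unadjusted p = 0.0393, limma adjusted p = 0.167) and −0.44 ± 0.36 in the knockout, opposite in sign to the wild-type differences of the probe sets named for either gene alone that were tested.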
